A study of Homo sapiens with 5 samples.

Results

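The zinc finger genes of human chromosome 19 were examined as sites of DNA replication initiation. They were taken as the protein-coding genes of GENCODE 44 on chromosome 19 whose symbol is ZNF followed by a number, and are called ZNF genes here. There were 249 such genes among the 1476 protein-coding genes of the chromosome, so 1227 other coding genes served as comparison. The symbol decided membership, and 3 members were read-through genes that join a neighbour, namely ZNF559-ZNF177, ZNF625-ZNF20 and ZNF816-ZNF321P.

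Zinc finger genes of this kind encode DNA-binding proteins in which cysteines and histidines hold zinc ions in a row of small folded units, the fingers. Many of them also carry a KRAB domain, which recruits the co-repressor TRIM28 and through it enzymes that place repressive chromatin marks, above all on transposable elements. The family grew by tandem duplication, and human chromosome 19 holds more of these genes than any other chromosome, in dense clusters. A typical member has a CpG-rich start, long introns and a large last exon that encodes the whole finger array as a string of near-repeated coding units.

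All lists came from EJ30, an established human bladder carcinoma cell line. In ini-seq 2, nuclei of cells held in late G1 by mimosine start replication in vitro in HeLa cell extract with Br-dUTP, so that newly replicated DNA becomes heavy-light (HL) and can be parted from light-light (LL) DNA in a density gradient. The 3-hour list held 23905 origins, each with an efficiency, the share HL/(HL + LL), and pooled 2 biological replicates. The 15-minute list, labelled as a control by the submitters, held 10181 origins, each with a Z-score within that list. SNS-seq, which sequences short nascent strands of growing cells, gave 147657 peaks from strands of 0.5 to 2 kb and 184966 peaks from strands of 2 to 4 kb, as positions only. Chromosome 19 held 2385 and 779 origins of the 3-hour and 15-minute lists and 11360 and 15001 peaks of the shorter and longer strands. Each condition is 1 list, so no test between conditions was possible, and every share below is a description. The ranges in brackets after main shares are exact Clopper-Pearson 95% intervals, and an upper limit beside a count of 0 is the share that 3 counts would make. Both cover counting error only. Neighbouring members descend from common ancestors and are not independent of each other.

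The starts of the ZNF genes differ visibly in sequence, and 5 are shown because they stand for the kinds of call described below. Each line is the 200 bases just upstream of the RefSeq start, read 5′ to 3′ on the strand of the gene in GRCh38, with every CpG in capitals. ZNF554 (chr19:2819668-2819867, plus strand) carried an origin in the top class of efficiency and intervals of all 4 lists. ZNF562 (chr19:9675101-9675300, minus strand) carried the origin of lowest efficiency. ZNF671 (chr19:57727625-57727824, minus strand) had SNS-seq peaks and no ini-seq 2 origin. ZNF90 (chr19:20077800-20077999, plus strand) had no interval of any list, and ZNF91 (chr19:23395472-23395671, minus strand) had an SNS-seq peak of the longer strands only.
ZNF554: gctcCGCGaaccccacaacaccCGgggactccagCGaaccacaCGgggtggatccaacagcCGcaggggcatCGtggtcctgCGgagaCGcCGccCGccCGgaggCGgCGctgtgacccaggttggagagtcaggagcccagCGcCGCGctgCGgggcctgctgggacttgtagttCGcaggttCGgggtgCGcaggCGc
ZNF562: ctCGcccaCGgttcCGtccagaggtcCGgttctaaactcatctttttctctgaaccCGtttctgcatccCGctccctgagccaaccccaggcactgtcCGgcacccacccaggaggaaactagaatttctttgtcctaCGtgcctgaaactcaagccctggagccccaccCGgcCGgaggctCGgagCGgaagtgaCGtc
ZNF671: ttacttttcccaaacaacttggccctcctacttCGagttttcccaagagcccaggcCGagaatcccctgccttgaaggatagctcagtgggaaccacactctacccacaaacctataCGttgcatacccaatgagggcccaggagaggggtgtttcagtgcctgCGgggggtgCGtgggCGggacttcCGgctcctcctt
ZNF90: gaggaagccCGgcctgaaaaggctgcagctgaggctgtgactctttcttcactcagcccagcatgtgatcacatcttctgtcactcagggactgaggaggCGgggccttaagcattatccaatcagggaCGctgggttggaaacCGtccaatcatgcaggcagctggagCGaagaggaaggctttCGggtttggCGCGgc
ZNF91: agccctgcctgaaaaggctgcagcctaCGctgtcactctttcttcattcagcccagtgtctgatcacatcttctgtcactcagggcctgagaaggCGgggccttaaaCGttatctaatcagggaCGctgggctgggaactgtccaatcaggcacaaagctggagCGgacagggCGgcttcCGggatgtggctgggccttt
The number of CpGs in these stretches was 22 for ZNF554, 13 for ZNF562, 7 for ZNF671, 8 for ZNF90 and 7 for ZNF91. Their GC content was 72% for ZNF554, 60% for ZNF562, 57% for ZNF671, 57.5% for ZNF90 and 57% for ZNF91. ZNF90 and ZNF91, which lie in the same cluster, were 81% identical over a global alignment, whereas the 9 other pairs among these 5 ranged from 44.9 to 49.3%.

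The starts of ZNF genes carried fewer called intervals than the starts of other coding genes in every list. A start counted as called when an interval lay within 2 kb of the 5′ end of the gene. In the 3-hour list, 106 of the 249 ZNF genes were called, 42.6% (36.3 to 49.0), against 68.1% of the other coding genes of the chromosome. In the 15-minute list 34 members were called, 13.7% (9.64 to 18.6), against 42% of the others. SNS-seq peaks of 0.5 to 2 kb lay at 149 starts, 59.8% (53.5 to 66.0), against 82.2%. Peaks of 2 to 4 kb lay at 195 starts, 78.3% (72.7 to 83.3), against 88.8%. The intervals of the ZNF genes and of the others did not overlap in any of the 4 lists. The gap was 28.3 percentage points for the 15-minute list and 10.4 for SNS-seq of the longer strands. When the interval had to cover the 5′ end itself, the 15-minute share was 6.43% against 27% and the shorter-strand share 29.3% against 51.3%.

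**Figure D1:**
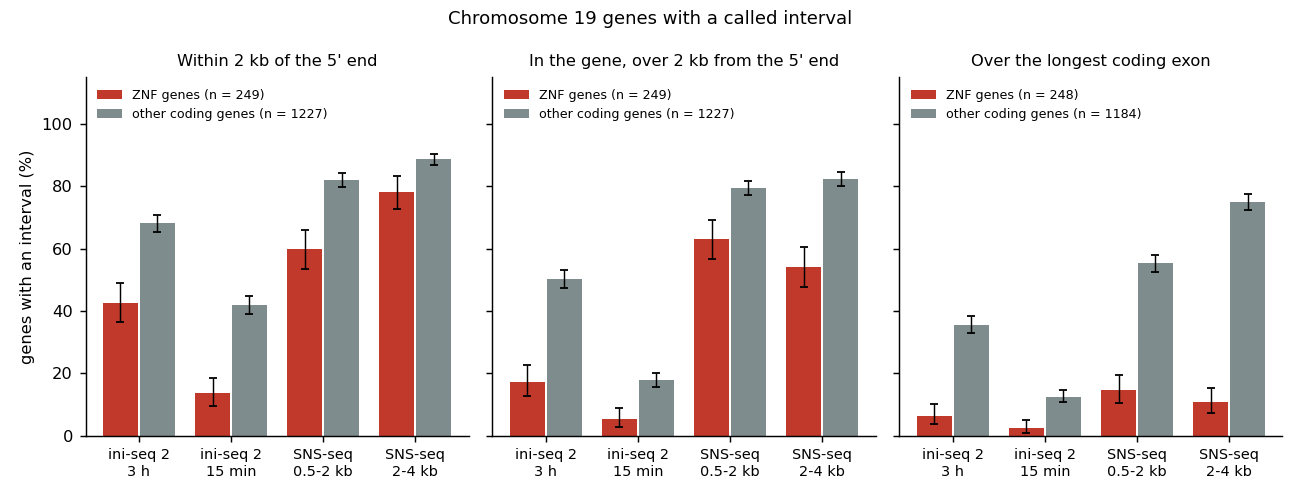
Percent of ZNF genes (red) and of other protein-coding genes of chromosome 19 (grey) with at least 1 called interval within 2 kb of the 5′ end (left), elsewhere in the gene (middle) and over the longest coding exon (right), for the 4 lists. Bars start at 0 and the error bars are exact 95% intervals for counting error. In each panel and list the red bar is the lower, for example 42.6% against 68.1% for 3-hour origins at starts.

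The lists overlapped strongly at ZNF starts and at other starts. Of the 249 members, 33 had intervals of all 4 lists at the start, 54 had a 3-hour origin with peaks of both SNS-seq fractions and no 15-minute origin, and 50 had peaks of both SNS-seq fractions alone. A further 39 had a peak of the longer strands only, 18 had a 3-hour origin with a peak of the longer strands, and 10 had a peak of the shorter strands only. No interval of any list lay at 43 starts, 17.3%, against 116 of the other genes, 9.45%. Intervals of all 4 lists lay at 13.3% of ZNF starts and at 41.3% of the others. Each of the 106 members with a 3-hour origin also had an SNS-seq peak within the same 2 kb, and ZNF780A was the only one among them without a peak of the longer strands. Among the 836 other genes with a 3-hour origin, 2 had no SNS-seq peak there. Of the 34 members called at 15 minutes, 33 were also called at 3 hours. Among the 515 other genes called at 15 minutes, 5 were not called at 3 hours, so this overlap was not particular to ZNF genes. The exception among members was ZNF700, whose start had a 15-minute origin of 300 bp with a Z-score of 0.32.

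The 5′ end used here is the outermost 1 in the annotation. In 42 members the Ensembl canonical transcript started more than 2 kb from it. At canonical starts the 3-hour share was 45.4% against 68.6% for other genes, and the 15-minute share was 15.7% against 43%. ZNF420, which encodes a KRAB protein that binds p53, illustrates the difference. It had no interval at its outermost 5′ end, but 1 origin of each ini-seq 2 list and 2 peaks of each SNS-seq fraction at its canonical start 70.6 kb further in. Of the 43 members without an interval at the 5′ end, 3 had 1 at the canonical start, which left 40 with none at either.

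Where an origin was called at a ZNF start, it was about as efficient as at other starts but shorter. The 106 members shared 103 distinct 3-hour origins, with a median efficiency of 0.888 (quartiles 0.850 and 0.915), against 0.883 for the 821 origins at other starts, 18 of which lay at starts of both groups. Split by the tertiles of the whole 3-hour list, at 0.842 and 0.907, the ZNF origins fell into 34 of high, 52 of medium and 17 of low efficiency. The same classes at other starts held 264, 385 and 172 origins. The share of high efficiency was 33.0% for ZNF starts and 32.2% for the others. Median origin length was 600 bp at ZNF starts (quartiles 400 and 800) and 1000 bp at other starts (quartiles 600 and 1600). Median GC content of the origins was 67.0% and 67.4%. Efficiency is given only for origins past the authors' minimum of 0.8, so both medians are bounded from below.

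The 5 most efficient ZNF start origins were those of ZNF507 (0.974, 600 bp), ZNF324 (0.958, 700 bp), ZNF555 (0.956, 1600 bp), ZNF554 (0.953, 700 bp) and ZNF181 (0.946, 400 bp). Each covered the 5′ end of its gene, and GC content of the surrounding 1 kb ran from 60.1% for ZNF181 to 73.1% for ZNF555. ZNF324, ZNF555 and ZNF554 were also called at 15 minutes, with Z-scores of -0.29, 0.23 and 1.43. ZNF507 and ZNF181 were not. The order by efficiency was therefore not the order at 15 minutes.

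The 5 least efficient were ZNF562 (0.804), ZNF780A (0.816), ZNF260 (0.818), ZNF419 (0.821) and ZNF121 (0.824). They were 300 bp long except for the 700 bp of ZNF260, their starts had a GC content between 54.0 and 56.9%, and none was called at 15 minutes. The number of SNS-seq peaks of the shorter strands was 0 at ZNF562, ZNF419 and ZNF121 and 1 at ZNF780A and ZNF260.

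The longest start origins belonged to ZNF579 (3600 bp), ZNF574 (2100 bp), ZNF524 (1900 bp), ZNF787 (1900 bp) and ZNF555 (1600 bp). Their efficiencies were 0.873, 0.861, 0.921, 0.929 and 0.956, and all 5 were called at 15 minutes. The first 4 are genes whose longest coding exon is itself GC-rich, between 62.6% in ZNF574 and 75% in ZNF579, whereas that of ZNF555 had 42.9%. ZNF579 is 4.08 kb long, close to the length of its origin, and their overlap was not measured.

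A smaller share of the high-efficiency origins had a 15-minute call at ZNF starts than at other starts. Of the 34 ZNF start origins of high efficiency, 21 overlapped a 15-minute origin, 61.8% (43.6 to 77.8), against 224 of 264 at other starts, 84.8% (79.9 to 89.0). In the medium class the counts were 12 of 52, 23.1% (12.5 to 36.8), against 213 of 385, 55.3% (50.2 to 60.4). In the low class none of 17 overlapped, which allows a share of up to 17.6% by the limit of 3 counts, against 19 of 172, 11.0%. The exact intervals of the 2 groups did not overlap in the high and medium classes. Origin length moved with this difference. The median length of high-efficiency origins was 650 bp at ZNF starts and 1000 bp at other starts. Among high-efficiency origins of 300 to 500 bp, 5 of 10 ZNF and 11 of 34 other origins were called at 15 minutes. Among those of 600 to 900 bp the counts were 10 of 17 and 74 of 85, and among those of 1000 bp or more 6 of 7 and 139 of 145. The part of origin length in the 15-minute shares was not tested further.

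**Figure D2:**
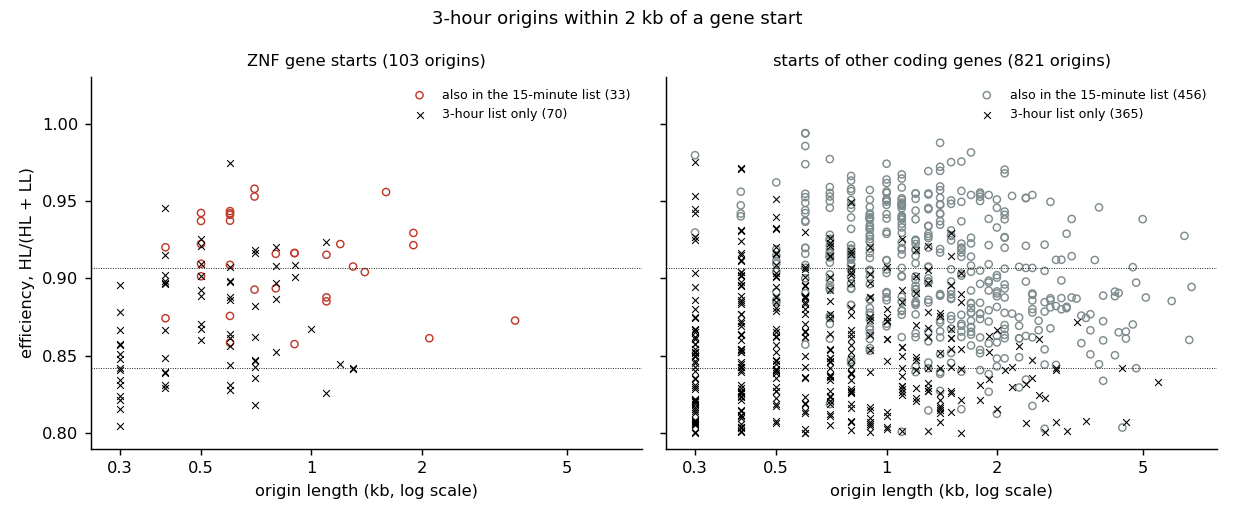
Efficiency against length (log scale) of each 3-hour origin within 2 kb of a ZNF start (left, 103 origins) and of another coding gene start (right, 821 origins). Circles are origins that overlap a 15-minute origin and crosses those that do not, and the dotted lines are the tertiles of the whole list. The ZNF origins lie mostly below 1 kb, and 33 of them are circles.

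The members called at 15 minutes were the more efficient and GC-rich of the ZNF starts. The 33 members called at both times had a median efficiency of 0.915 (0.858 to 0.958), and the 73 called at 3 hours alone had 0.866 (0.804 to 0.974), so the ranges overlapped. Median GC content of the 1 kb at the start was 64.5% for the first set, 59.9% for the second and 55.1% for the 142 members called at neither time. The 35 distinct 15-minute origins at ZNF starts had a median Z-score of -0.42, against 0.0048 for the 462 at other starts, and median lengths of 400 and 600 bp. The highest Z-scores among members were those of ZNF787 (1.51) and ZNF554 (1.43), and the lowest was that of ZNF544 (-1.83), named after the values were seen.

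SNS-seq peaks lay over nearly all of these origins. Peaks of the shorter strands overlapped 84 of the 103 ZNF start origins, 81.6%, and 88.5% of the other start origins. Peaks of the longer strands overlapped 100, 97.1%, against 98.7%. By class, the shorter strands covered 33 of 34 high, 41 of 52 medium and 10 of 17 low origins of ZNF starts. Peaks at ZNF starts were shorter than at other starts, with medians of 354 against 437 bp for the shorter strands and 478 against 676 bp for the longer.

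Intervals of all 4 lists were centred at the start. Coverage was highest in the 250 bp just downstream of the 5′ end. There 33.7% of positions of ZNF genes lay in a 3-hour origin, against 51.6% of other genes. The same values were 8.69 and 29.1% for the 15-minute list, 35.6 and 52.3% for the shorter SNS strands and 64.6 and 73.8% for the longer. Between 5 and 20 kb downstream, ZNF genes fell to 1.7, 0.298, 4.76 and 7.69% in this order of lists, and other genes to 7.68, 1.49, 17.9 and 35.7%. The 3-hour origin nearest the start covered the 5′ end itself in 74 of 106 members, 69.8%, and in 72.9% of other genes. Its centre lay downstream of the 5′ end in 90 of the 106 members, 84.9%, with a median of 184 bp inside the gene, against 73.6% and 234 bp for the others.

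**Figure D3:**
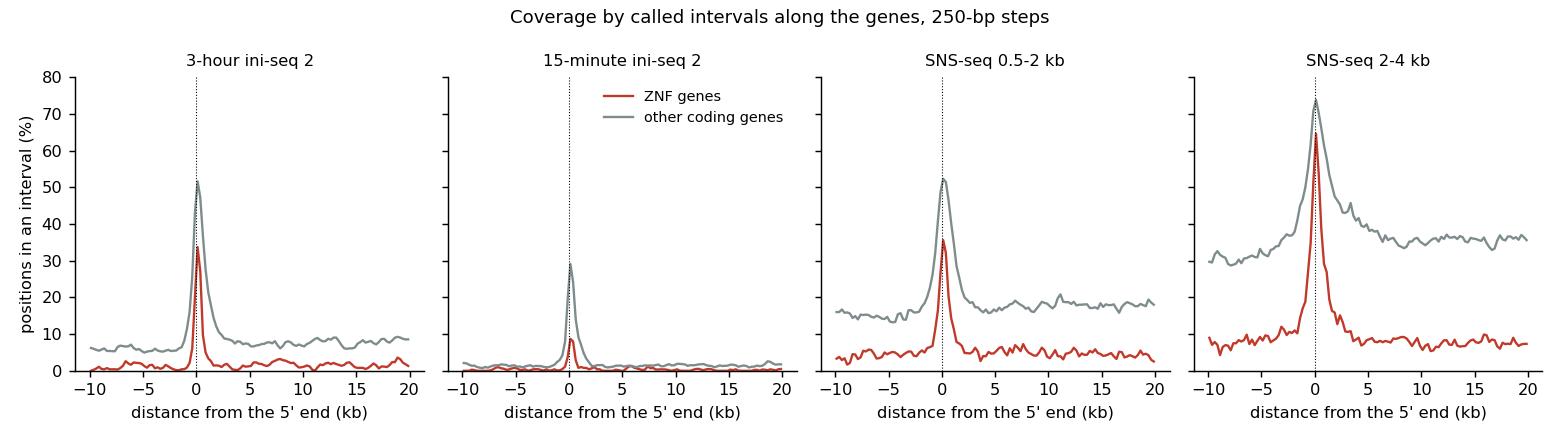
Percent of positions covered by called intervals in 250-bp steps from 10 kb upstream to 20 kb downstream of the 5′ end, in the direction of transcription, averaged over ZNF genes (red) and other coding genes of chromosome 19 (grey); steps beyond the end of a gene are included. Both groups peak just downstream of the 5′ end in every list, for 3-hour origins at 33.7% and 51.6%, and away from the start the mean of the ZNF line is the lower in every list.

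ZNF starts were poorer in G and C than other starts, and base composition moved with calling in both groups. Median GC content of the 1 kb centred on the 5′ end was 57.5% (quartiles 53.1 and 61.0) in ZNF genes and 60.9% (56.3 and 65.7) in the others. Among ZNF starts, the 3-hour share was 7 of 48 at 50 to 55% GC, 33 of 88 at 55 to 60%, 42 of 59 at 60 to 65% and 18 of 20 at 65 to 70%. These are 14.6, 37.5, 71.2 and 90%, and the other genes had 28.7, 49.6, 86.2 and 99.5% in the same steps. The 15-minute shares were 2.08, 5.68, 22 and 60% against 13.3, 14.4, 41.1 and 84.6%. Peaks of the shorter strands gave 39.6, 53.4, 79.7 and 100% against 59.4, 77.7, 92.4 and 100%, and peaks of the longer strands 60.4, 81.8, 98.3 and 100% against 74.1, 92.1, 98.9 and 100%. With GC content taken over this 1 kb the ZNF share was the lower in the first 3 of these steps in all 4 lists. With GC content taken over 2 kb the order of the 3-hour shares turned in the lower steps. At 45 to 50% GC, 8 of 61 ZNF starts had a 3-hour origin, 13.1% against 6.49% of other starts. At 50 to 55% it was 43 of 93, 46.2% against 43.1%, and at 55 to 60% 42 of 65, 64.6% against 69.5%. The shares for the longer strands at 50 to 55% were 87.1 and 84.6%. The shorter strands gave 44.3 against 40.3% at 45 to 50%, 58.1 against 69.5% at 50 to 55% and 75.4 against 86.4% at 55 to 60%. The 15-minute shares were 1.64 against 2.6%, 5.38 against 13% and 26.2 against 29.2% in the same 3 steps. At 60 to 65% over 2 kb, 10 of 12 ZNF starts had a 3-hour origin, 83.3% against 95.4%. Which group had the higher 3-hour share at like GC content thus depended on the window between 45 and 55% GC. From 55 to 65% the ZNF share was the lower with either window.

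**Figure D4:**
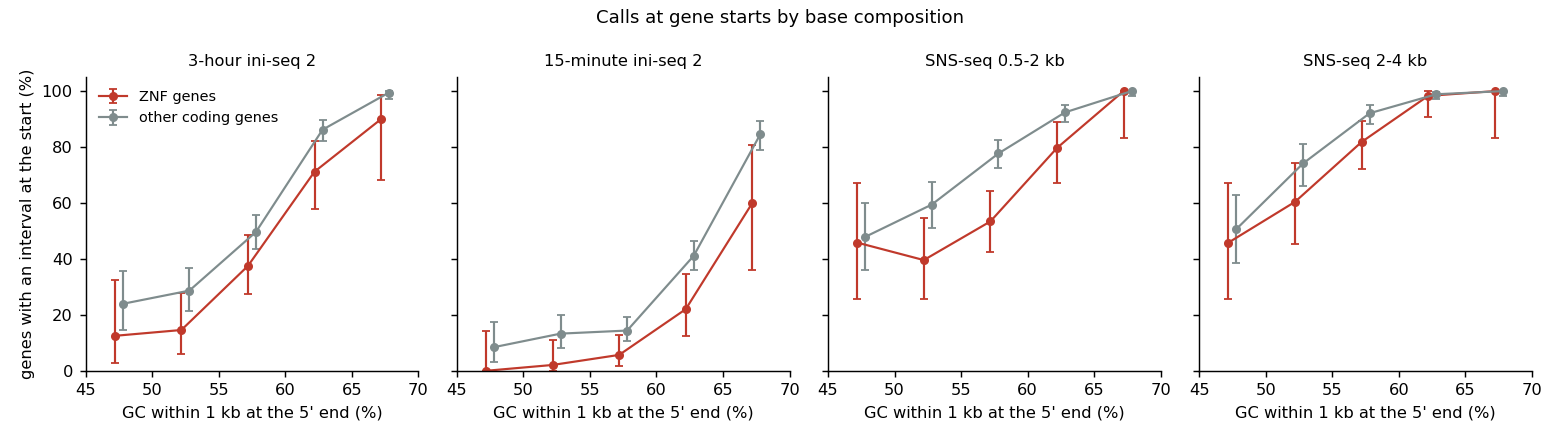
Percent of genes with an interval at the start against the GC content of the 1 kb centred on the 5′ end, in steps of 5 percentage points from 45 to 70%, for ZNF genes (red) and other coding genes (grey); error bars are exact 95% intervals. Shares rise from 50% GC upwards in every panel, and the red points lie at or below the grey, for example at 71.2% against 86.2% for 3-hour origins at 60 to 65% GC.

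Upstream sequences of ZNF and other genes were close in median CpG number and differed in runs of G. RefSeq promoter windows, 250 bases before to 50 after the start in GRCh38, were found by symbol for 218 members and 949 other genes. The 250 upstream bases held a median of 16 CpGs in ZNF genes (quartiles 11 and 20) and 17 in the others (7 and 25). Members with a 3-hour origin held 18 and those without 14, whereas other genes with an origin held 20 and those without 6. By these medians the windows of uncalled ZNF genes held more CpGs than those of other uncalled genes. The origin was counted at the outermost 5′ end, however, and the window was taken at the RefSeq start. In 42 members and 154 other genes the canonical start lay more than 2 kb from the outermost 5′ end. Some windows counted as without an origin can therefore carry 1, which was not checked. A G-quadruplex motif was searched as 4 runs of at least 3 G with 1 to 7 bases between, on both strands. It lay in 39 ZNF windows, 17.9%, and in 37.1% of the others. It lay in 22.5% of the 102 windows of members with a 3-hour origin at the outermost 5′ end and in 13.8% of the 116 without. For other genes the same shares were 45.3% of 666 windows and 17.7% of 283.

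Reads had to align to a single place in the genome, and near-identical paralogues can lose reads on this account. Of all 50-base words of chromosome 19, the read length of the study, 9.52% occurred more than once on the chromosome. Within 2 kb of the start the median share of such words was 2.58% for ZNF genes and 2.48% for the others. It was 2.66% for members with a 3-hour origin and 2.51% for members without, and 2.43% for the 43 starts without any interval. The upper quartiles of these sets were 4.55, 6.06 and 4.05%, and the highest values 20.1, 32.1 and 27.3%. Other chromosomes were not searched, and the part of unmappable reads in the calls was not tested.

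The interior of ZNF genes held few origins. An interval counted as in the body when it overlapped the gene and lay more than 2 kb from the 5′ end. In the 3-hour list 43 members had 1, 17.3% (12.8 to 22.6), against 50.4% of the others, although ZNF genes are longer, with a median of 26.1 against 13.8 kb. In the 15-minute list 13 did, 5.22%, against 17.8%. SNS-seq peaks of the shorter strands lay in 157 ZNF bodies, 63.1%, against 79.5%, and peaks of the longer strands in 135, 54.2%, against 82.4%. Start and body together were called in 124 members at 3 hours, 49.8% against 78.8%, and in 42 at 15 minutes, 16.9% against 50.1%. For SNS-seq they were called in 196 members for the shorter strands, 78.7% against 92.2%, and in 211 for the longer, 84.7% against 94.3%. No interval of any list lay anywhere in 17 of the 249 members, among them ZNF93, ZNF90, ZNF737, ZNF85, ZNF714 and ZNF175. The same held for 52 of the 1227 other genes.

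Per length, ZNF bodies held 0.761 3-hour origins per 100 kb, against 5.44 in other genes. For the 15-minute list the densities were 0.183 and 1.14, for the shorter SNS strands 6.55 and 27.7, and for the longer 7.23 and 37.1 per 100 kb. GC content of the whole gene moved with density, and its median was 43.6% in ZNF genes and 54.0% in the others. Among genes of 40 to 45% GC, 122 ZNF genes had 0.307 and 74 other genes 0.584 3-hour origins per 100 kb of body. At 35 to 40%, 43 ZNF genes had 0.0743 and 8 other genes 0.262, from 1 origin in each group. At 45 to 50% the densities were 1.1 in 58 ZNF genes and 1 in the others. At 50 to 55% they were 5.32 and 5.03, and at 55 to 60% 12 and 11.4. The ZNF values of these upper steps rest on 9 genes with 5 origins and 12 genes with 13 origins. At matched GC of the gene, the 3-hour densities thus lay close to each other from 45 to 60%. From 35 to 45% the ZNF density was the lower. Densities of shorter-strand peaks were 9.69 against 14.9 per 100 kb at 45 to 50%, 28.7 against 29.5 at 50 to 55% and 56.1 against 46.5 at 55 to 60%. Those of longer-strand peaks were 12.3 against 20.4, 51.1 against 46.5 and 54.3 against 55.8 in the same steps. At 40 to 45% the densities were 4.63 against 5.74 for the shorter and 4.63 against 6.49 for the longer strands. At 35 to 40% they were 1.93 against 4.45 and 0.818 against 4.45. Origins in bodies away from any coding gene start had a median efficiency of 0.869 in ZNF genes (43 origins) and 0.843 in others (1195 origins).

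ZNF536 carried the most body origins, 5 of the 3-hour list and 1 of the 15-minute list. This gene, which encodes a negative regulator of neuronal differentiation, is 489 kb long and held 37 and 50 SNS-seq peaks of the shorter and longer strands in its body. The origin counted at its start, with an efficiency of 0.937, lay 1891 bp from the outermost 5′ end, where GC content was 43.4%. ZNF653 had 3 body origins in 22.4 kb, and ZNF846, ZNF627 and ZNF709 were among those with 2. ZNF627 had no ini-seq 2 origin at its 5′ end but 1 at its canonical start 38.1 kb inside.

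SNS-seq peaks in the body were densest in ZNF653 (24 peaks in both fractions together, 107 per 100 kb), ZNF575 (103 per 100 kb), ZNF581 (98.4), ZNF787 (88.4) and ZNF865 (86.0), counted over members of at least 10 kb. All 5 have GC-rich coding exons, between 62.4% in ZNF581 and 74.1% in ZNF787. At the other end, the 62.5 kb of ZNF93 and the 49.1 kb of ZNF90 held none.

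Finger exons of low GC content were nearly free of intervals. The longest coding exon of the canonical transcript was taken as the exon of the finger array, without a check of each protein. It had a median length of 1.54 kb and 40.9% GC in 248 ZNF genes, against 0.3 kb and 64.1% in 1184 other genes. Finger exons of both low and high GC content are shown, each as 168 bases on the coding strand in hg38, with the word ACTGGAGA in capitals. This word encodes the first residues of the linker that joins neighbouring fingers. ZNF91 (chr19:23361947-23362114, minus strand) and ZNF208 (chr19:21974197-21974364, minus strand) have long exons of low GC content and had no interval there, and 30.1% and 36.6% of the 50-base words of these exons recur on the chromosome. ZNF628 (chr19:55481401-55481568, plus strand) has a GC-rich exon that intervals of all 4 lists overlapped.
ZNF91: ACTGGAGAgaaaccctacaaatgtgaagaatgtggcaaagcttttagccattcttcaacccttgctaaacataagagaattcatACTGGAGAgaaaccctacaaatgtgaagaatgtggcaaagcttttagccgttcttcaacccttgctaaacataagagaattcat
ZNF208: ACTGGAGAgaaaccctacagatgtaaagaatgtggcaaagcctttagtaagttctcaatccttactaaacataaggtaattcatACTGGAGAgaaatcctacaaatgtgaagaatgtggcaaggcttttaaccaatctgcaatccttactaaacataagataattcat
ZNF628: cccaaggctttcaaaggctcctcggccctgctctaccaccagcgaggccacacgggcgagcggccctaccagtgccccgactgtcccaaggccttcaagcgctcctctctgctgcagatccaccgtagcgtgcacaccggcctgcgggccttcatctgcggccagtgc
The stretch of ZNF91 repeats after 84 bases, the length that encodes 1 finger with its linker, and its first and second repeat were 98.8% identical, against 84.5% in ZNF208 and 64.3% in ZNF628. The word occurred in the longest coding exon of 201 of 248 members, 81.0%, with a median of 5 and up to 23 copies in ZNF208, and in 1.69% of the exons of other genes. It was searched on the coding strand only.

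An interval of the 3-hour list overlapped the longest coding exon of 16 members, 6.45% (3.73 to 10.3), against 35.6% of other genes. For the 15-minute list the count was 6, 2.42%, against 12.6%. SNS-seq peaks of the shorter strands overlapped 36, 14.5%, against 55.2%, and peaks of the longer strands 27, 10.9%, against 75.1%. Exons of ZNF genes are longer, and among exons of at least 1 kb the counts were 7, 4, 22 and 15 of 222 ZNF exons, against 69, 31, 104 and 112 of 151 other exons, in the order of lists above. The 36 members with any interval on the exon had a median exon GC content of 66.3%, and the 212 without had 40.2%. Among the 174 ZNF exons of at least 1 kb with less than 45% GC, none was overlapped by an origin of either ini-seq 2 list or by a peak of the longer strands, which allows a share of up to 1.72%, and 3 were overlapped by a peak of the shorter strands. Only 14 other genes had such an exon, and 0, 0, 1 and 0 of them were overlapped.

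The members with a 3-hour origin over the exon had GC-rich exons, such as ZNF628 (71.0% GC), ZNF579 (75%), ZNF524 (68.9%), ZNF865 (72.0%), ZNF574 (62.6%) and ZNF446 (67.5%). Not every GC-rich exon had 1, and those of ZNF787 (74.1%) and ZNF575 (70.9%) carried no 3-hour origin. ZNF274, a KRAB protein known to bind the finger exons of other zinc finger genes and to recruit the methyltransferase SETDB1 there, had an exon of 47.6% GC with 1 peak of the shorter strands. Words of 50 bases that recur on the chromosome made up a median of 0.0242% of ZNF exons (upper quartile 7.29%, highest 69.4%) and 0% of other exons, and their part in the missing calls was not tested.

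The ZNF genes were joined into clusters when neighbours lay within 500 kb and at least 5 followed each other. This placed 235 members in 10 clusters and left 14 outside. Within the spans of the clusters, 96 of 235 ZNF starts had a 3-hour origin, 40.9% (34.5 to 47.4), against 43 of 109 other starts, 39.4% (30.2 to 49.3). This order turned when clusters were joined at 250 kb (40.3 against 44.3%) or 1 Mb (41.6 against 50.3%). At 15 minutes the shares were 12.3% (8.42 to 17.2) and 21.1% (13.87 to 29.96). SNS-seq peaks of the shorter strands lay at 57.9% (51.3 to 64.3) and 56% (46.1 to 65.5), and peaks of the longer strands at 77.9% (72.0 to 83.0) and 67.9% (58.3 to 76.5). The intervals overlapped in all 4 lists, unlike those over the whole chromosome. Single clusters went opposite ways in the 3-hour list. ZNF starts were called in 17.4% and other starts in 64.3% from ZNF575 to ZNF180, in 23.1 and 50% from ZNF565 to ZNF573 and in 10.8 and 33.3% from ZNF101 to ZNF254. The shares were 50 and 14.3% from ZNF414 to ZNF846 and 37.5 and 14.3% from ZNF175 to ZNF331. Other genes numbered from 3 to 23 per cluster where there were any. The 14 members outside clusters had a 3-hour origin in 10 and a 15-minute origin in 5.

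Clusters differed widely. The largest by length, from ZNF101 to ZNF254, spans 4.46 Mb of the short arm with 41.2% GC, and 4 of its 37 starts had a 3-hour origin. These were ZNF101 (0.918), ZNF14 (0.876), ZNF254 (0.856) and ZNF682 (0.839), of which ZNF14 and ZNF682 were named after the values were seen. ZNF14 was the only 1 of the 37 called at 15 minutes. Over the whole span of this cluster there were 4.71 3-hour origins per Mb, against 40.7 per Mb of chromosome 19. It held 14 of the 43 starts without any interval, and 9 of the 17 members without an interval anywhere. Median GC content of its starts was 54.5%, against 57.3% over all clusters. At 55 to 60% GC of the start, 2 of 15 members of this cluster and 31 of 73 members elsewhere had a 3-hour origin, and at 50 to 55% the counts were 1 of 15 and 6 of 33. Its starts had a median of 3.74% repeated 50-base words.

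The opposite was found in smaller clusters. All 5 starts of the cluster from ZNF302 to ZNF792 had a 3-hour origin. Efficiencies were 0.907 in ZNF302, 0.946 in ZNF181, 0.898 in ZNF599, 0.831 in ZNF30 and 0.916 in ZNF792. The span had 42.7% GC, but the median GC content of its starts was 60.1%, against 57.3% over all clusters. Of the 5 in the cluster from ZNF554 to ZNF77 near the end of the short arm, 4 had a 3-hour origin and 3 a 15-minute origin, and the median efficiency of 0.938 was the highest of the clusters. The cluster from ZNF653 to ZNF791 had 3-hour origins at 18 of 26 starts and peaks of the longer SNS strands at all 26. Median GC content of the starts was 67% from ZNF554 to ZNF77 and 61.4% from ZNF653 to ZNF791.

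On the long arm, the cluster from ZNF565 to ZNF573 had 3-hour origins at 6 of 26 starts, and the cluster from ZNF575 to ZNF180 at 4 of 23. The cluster from ZNF175 to ZNF331 had 15 of 40, the cluster from ZNF628 to ZNF835 8 of 16 and the cluster from ZNF264 to ZNF446 25 of 43. Median GC content of the starts was 57.1, 50, 55.1, 62.7 and 58.9% in these clusters, in the order named. None of the 26 and none of the 40 starts of the clusters from ZNF565 and from ZNF175 had a 15-minute origin, which allows shares of up to 11.5 and 7.5%, whereas 6 of the 16 starts from ZNF628 to ZNF835 did. The cluster from ZNF414 to ZNF846 had 3-hour origins at 7 of 14 starts but at a median efficiency of 0.845, the lowest of the clusters, and its shorter-strand share was 5 of 14.

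**Figure D5:**
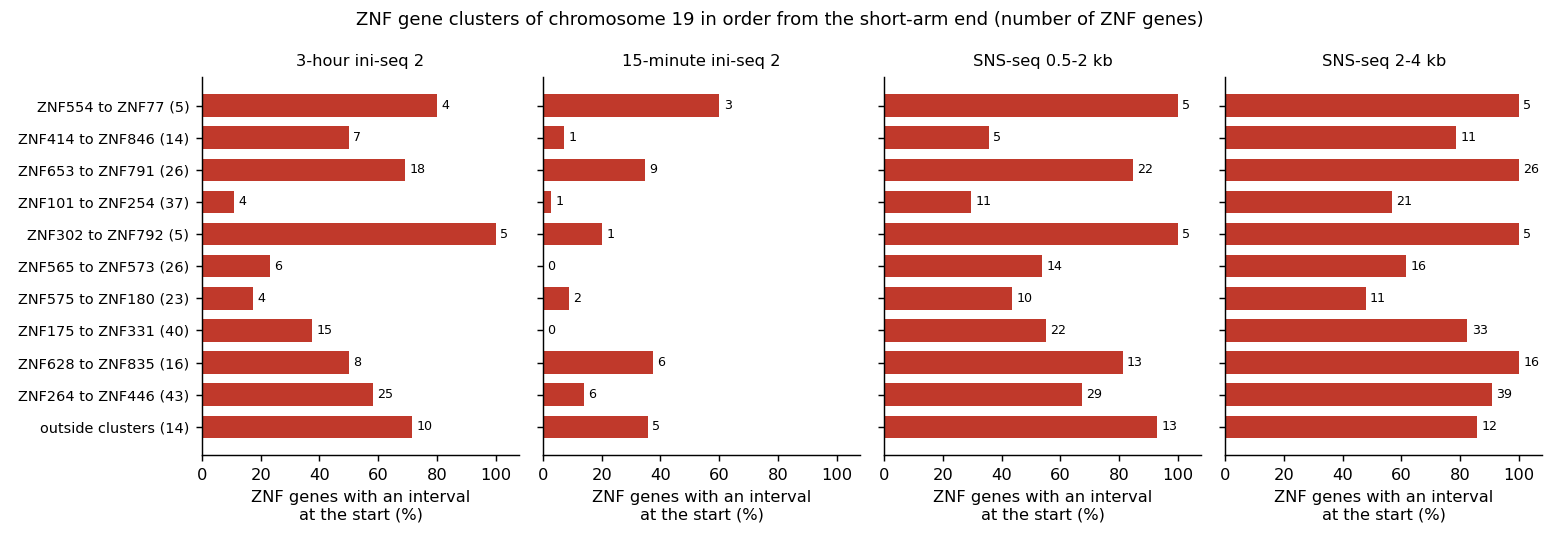
Percent of ZNF genes with an interval at the start in each of 10 clusters and outside them, for the 4 lists. The clusters are named by their first and last member and ordered from the end of the short arm, the number of ZNF genes is in brackets and the number called stands beside each bar. The cluster from ZNF101 to ZNF254 has 4 of 37 starts called at 3 hours and the cluster from ZNF302 to ZNF792 all 5.

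Among the ZNF starts without any interval, the first 10 in chromosome order were ZNF317, ZNF266, ZNF426, ZNF93, ZNF90, ZNF737, ZNF626, ZNF85, ZNF714 and ZNF431. GC content of the 1 kb at their starts ran from 49.4% in ZNF626 to 56.6% in ZNF266. ZNF266 nonetheless held 4 peaks of the shorter and 2 of the longer strands in its body, while the bodies of ZNF93, ZNF90, ZNF737, ZNF85 and ZNF714 held none.

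Members known for a function of their own fell into all of these kinds. ZNF91 and ZNF93, which restrain SVA and LINE-1 retrotransposons, had no ini-seq 2 origin at the start, and ZNF91 had 1 peak of the longer strands there and 1 3-hour origin within its 90.5 kb. ZNF43 had 2 peaks of the longer strands at the start and ZNF208 none of any list. ZNF274 had an origin of 0.908 and ZNF8 1 of 0.861, both with SNS-seq peaks of both fractions and without a 15-minute origin. ZNF154 and ZNF671, whose starts are known to be methylated in tumours, had SNS-seq peaks of both fractions (1 and 2 at ZNF154, 2 and 3 at ZNF671) and no ini-seq 2 origin, at 55.1 and 59.0% GC. DNA methylation was not measured.

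ZNF331, an imprinted gene, had no ini-seq 2 origin at its outermost 5′ end and 2 3-hour origins in its body, 1 of which lay at the canonical start 18.6 kb inside. ZNF382, ZNF432 and ZNF480 had SNS-seq peaks and no ini-seq 2 origin at the start, and ZNF568 had no interval there and 5 and 3 SNS-seq peaks in its body. Start origins were shared by 3 pairs of members, ZNF569 with ZNF570 and the read-through genes ZNF625-ZNF20 and ZNF816-ZNF321P with their first partner. The 53 members that lie within 2 kb of another coding start could in part be counted for their neighbour.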

How the data were processed

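EJ30 cells were mapped by ini-seq 2 and SNS-seq, and the genomic DNA library was not analysed here. Per the methods and the submitters' processing notes, reads of 50 nt were aligned to hg38 with bowtie2, and unique reads without duplicates were kept. For ini-seq 2 the authors compared HL with LL reads per 100 bp window. Windows with a log2 ratio of 2 or more were merged across gaps of up to 500 bp, and merged intervals needed an efficiency of 0.8 or more. The deposited value of a 3-hour origin is this efficiency, a fraction, although its column is headed as a Z-score. The deposited value of a 15-minute origin is a score, a Z-score over that list. SNS-seq peaks were called by the authors in MACS2, with genomic DNA as background, and deposited as positions. Of the lists, the 3-hour one is stated to pool 2 replicates. No counts are in the files, so depth per interval is unknown.

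GENCODE 44 and the hg38 sequence were used with the positions as given. Shares, exact Clopper-Pearson 95% intervals (scipy 1.17.1), medians and GC content were computed with Python 3.11.15, pandas 2.3.3 and numpy 2.4.6, and the overlap functions were tested on simulated intervals. With 1 list per condition no test was run. Promoter windows came from RefSeq (GRCh38.p14). Members, gene lists and the naming rule were chosen with earlier results of these data known. The text names the 5 most and 5 least efficient start origins, the 5 longest, the first 10 members without an interval at the start, the 5 with most body origins, the 5 with the densest body peaks, first and last members of clusters, members called at 15 minutes alone, and a fixed list of known genes. Genes named outside this rule are said to be, or illustrate a count.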

Additional observations from a re-analysis of the deposited data

How the results depend on the processing

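Of 51 values recomputed under an alternative, 32 stayed within the counting interval of the value reported, 13 left it in the same direction and 6 turned the order of ZNF and other genes. The causes were not tested. Requiring the interval to cover the 5′ end gave 29.7% of ZNF against 49.6% of other genes for 3-hour origins and 6.43 against 27% at 15 minutes. For SNS-seq peaks it gave 29.3 against 51.3% for the shorter and 59.4 against 73.4% for the longer strands. With a distance of 5 kb, the shorter-strand share was 67.9% of ZNF genes against 90.6% of other genes. Origins of at least 0.9 efficiency lay at 16.1% of ZNF starts and 28% of other starts. Peaks that overlapped a peak of the other fraction lay at 53.4% of ZNF starts for both fractions. At other starts the shares were 78.2% for the shorter and 78.6% for the longer strands. Against other genes within the clusters, the order turned to 42.6 against 39.4% at 3 hours, 59.8 against 56% for the shorter and 78.3 against 67.9% for the longer strands. The 15-minute order held, at 13.7 against 21.1%. These ZNF shares cover all 249 members, with the 14 outside clusters. With clusters joined at 500 kb, 40.9% of ZNF starts in clusters were called against 39.4% of other starts, which turned to 40.3 against 44.3% at 250 kb and 41.6 against 50.3% at 1 Mb. Median efficiency of origins covering the 5′ end was 0.885 against 0.889, the reverse of the order within 2 kb. In genes of 10 to 50 kb, 11.1% of ZNF bodies held a 3-hour origin, against 61.2% of other bodies. Bodies counted from 5 kb held shorter-strand peaks in 53.4% and longer-strand peaks in 45% of ZNF genes, against 69.6 and 71.5% of other genes. The GC step of 55 to 60% taken over 2 kb gave 64.6% for ZNF genes against 69.5% for other genes. At 45 to 50% and 50 to 55% the order of ZNF and other genes turned (13.1 against 6.49% and 46.2 against 43.1%). Longest coding exons of at least 1 kb were an alternative chosen after seeing the data, like the canonical start. They held shorter-strand peaks in 9.91% of ZNF genes, against 68.9% of other genes. No paired analysis was possible because each condition has 1 list.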

Other observations

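Zinc finger genes of chromosome 19 with other names were counted in the same way. Of 19 listed, 17 were found, the other 2 being members under their newer names. A 3-hour origin lay at 10 of the 17 starts, a 15-minute origin at 7, a peak of the shorter strands at 13 and of the longer strands at 16, which are 58.8, 41.2, 76.5 and 94.1%. The other coding genes of the chromosome had 68.1, 42, 82.2 and 88.8%. ZSCAN1 (0.947), ZBTB7A (0.938) and ZBTB45 (0.932) had the highest efficiencies. PEG3, an imprinted gene, shares its start with ZIM2 and an origin of 0.919, and ZIM3, the source of a KRAB domain used in synthetic repressors, had no interval of any list.

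Genes of the machinery that KRAB zinc finger proteins recruit lie on several chromosomes. Of 15, 9 had a 3-hour origin at the start, 7 a 15-minute origin, 10 a peak of the shorter and 13 of the longer strands, which are 60, 46.7, 66.7 and 86.7%. Over all 20046 coding genes of the genome the shares were 57.5, 40.4, 69.6 and 75.5%. TRIM28, itself on chromosome 19, had an origin of 0.934, DNMT1, the maintenance DNA methyltransferase, 1 of 0.937, and TASOR and PPHLN1 of the HUSH complex 0.945 and 0.959. SETDB1 and ATF7IP had SNS-seq peaks and no ini-seq 2 origin, and ATRX and SMARCAD1 had no interval at the start.

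Other tandem families of chromosome 19 ranged widely. No 3-hour origin lay at the starts of the 7 KIR, 10 LILR, 11 SIGLEC, 20 olfactory receptor, 9 NLRP, 3 VN1R or 10 PSG genes, and the PSG genes, which encode pregnancy-specific glycoproteins, had no interval of any list, at a median start GC of 55.4%. The 12 CEACAM genes had 2, the 6 CYP2 genes 1 and the 15 kallikrein (KLK) genes 9 starts with a 3-hour origin, against 68.1% of the coding genes of the chromosome other than ZNF genes. The KLK share of 60% stood beside a median start GC of 58.6%, 1 15-minute origin and peaks of the longer strands at 14 starts. Median start GC was 44.4% in olfactory receptor, 45.8% in VN1R, 50.3% in KIR, 51% in NLRP, 52.3% in LILR and 57.4% in SIGLEC genes. It was 52.5% in CEACAM and 53.6% in CYP2 genes. At 40 to 45 and 45 to 50% start GC, 0 and 23.9% of coding genes other than ZNF genes had a 3-hour origin. At 50 to 55 and 55 to 60% the shares were 28.7 and 49.6%. Few genes per family and common descent limit what these counts show.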
